A study of Mus musculus with 10 samples.

Results

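The CHD family comprises the chromodomain helicase DNA-binding proteins, and its 9 mouse genes (Chd1 to Chd9) were taken by symbol from the 23235 genes listed in each of 2 expression tables. All 9 were found in both tables. The cells came from embryonic mouse cortex that had been electroporated in utero at embryonic day 13 with GFP and either an shRNA against Chd8 or a control shRNA. At day 15 the GFP-positive cells were sorted, with the cortices of 3 to 5 embryos pooled for each library. The new set holds 3 knockdown and 3 control libraries (replicates 10, 11 and 12 of each), in a table named for shRNA1. The first set holds 2 knockdown and 2 control libraries (replicates 1 and 2 of each), in a table named for shRNA2. Each control library carried a control shRNA in place of the Chd8 shRNA. Because shRNA, batch and table all differ between the sets, their parts cannot be told apart. The mouse strain, the shRNA sequences and the promoter driving the shRNA were not analysed here.

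CHD proteins use ATP hydrolysis to slide, evict or space nucleosomes, and their paired chromodomains contact histone tails. They fall into subfamilies: Chd1 and Chd2, then Chd3, Chd4 and Chd5, then Chd6, Chd7, Chd8 and Chd9. Chd3, Chd4 and Chd5 can each serve as the ATPase of the NuRD complex, which pairs nucleosome remodelling with histone deacetylation. CHD8 binds beta-catenin and the insulator protein CTCF, and loss of function of CHD8 is a strong risk factor for autism in humans. In the mouse cortex, radial glia divide at the ventricle and give rise to neurons directly or through intermediate progenitors.

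As SNF2-type ATPases, the members share a helicase core, in which a motif that takes part in ATP hydrolysis holds the residues DEAH. A search of the longest reading frame of each gene in GENCODE M21 transcripts (GRCm38) found 1 DEAH motif in each of the 9 members. The coding stretch around it is shown for Chd8 and Chd7, the members that fell in the new set, for Chd1, whose fold change differed between the sets, and for Chd4, an abundant member in both sets. These genes lie on chromosomes 14, 4, 17 and 6. Capitals mark the 12 bases that code for DEAH, within 45 bases read 5′ to 3′ on the coding strand.
Chd8: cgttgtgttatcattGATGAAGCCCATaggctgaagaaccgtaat
Chd7: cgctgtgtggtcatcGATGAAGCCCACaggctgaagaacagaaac
Chd1: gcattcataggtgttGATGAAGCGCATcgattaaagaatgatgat
Chd4: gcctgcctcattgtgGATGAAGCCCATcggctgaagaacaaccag
Over these 45 bases Chd7 and Chd8 shared 37 bases (82.2%), and the closest pairs of the family, Chd3 with Chd5 and Chd4 with Chd5, shared 39 (86.7%). Chd1 and Chd7 were the most distant pair, with 22 shared bases (48.9%). This is a short stretch of a conserved domain, so it does not describe the likeness of the whole transcripts.

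Expression is given in FPKM, fragments scaled by transcript length and by sequenced fragments, so levels may be compared between genes of one table. Absolute depth is unknown. Relative depth, read from the step that 1 fragment is worth in lowly expressed genes, ranged over the new set from 0.957 to 1.39, with control replicate 10 taken as 1. First-set knockdown replicates 1 and 2 had 0.527 and 0.528 times the depth of control replicate 1, and control replicate 2 had 1.22 times. The 2 first-set knockdown libraries stand apart from the other 8. Their 1096 olfactory receptor genes (pseudogenes left out) averaged 0.672 and 0.557 FPKM, against 0.0036 and 0.00817 FPKM in the first-set controls. Only 55.1% and 49.2% of these genes exceeded 0.01 FPKM there, against 1.37% and 6.02% in the controls, so the mean is not an even floor. In the separately normalized new-set table they averaged at most 0.00162 FPKM in any library. Members at a few FPKM in the first set are therefore given below also after subtraction of that background. Markers of radial glia and cortical neurons summed to at least 1017 and 2190 FPKM in every library. Fabp7 and Vim made up most of the radial glia sum, and first-set Hes5 was at most 3.17 FPKM. Markers of microglia, endothelium, meninges and oligodendrocyte precursors summed to at most 5.42 FPKM each in the new set, with Sox10 at 0 in 3 of its 6 libraries. New-set erythroid markers summed to 23.1 to 114 FPKM in knockdown libraries and 137 to 264 FPKM in controls, with 2 of 4 tested lower, and the choroid plexus marker Ttr reached 42.9 FPKM in 1 knockdown library. First-set microglia markers summed to 8.23 and 19.3 FPKM in knockdown libraries, against 1.52 and 4.75 FPKM in controls. The first-set sums of endothelium markers were 2.24 and 5.55 FPKM in knockdown libraries, against 0.543 to 1.85 FPKM in controls. Those of meninges markers were 1.58 and 1.82 FPKM in knockdown libraries, against 0.316 to 0.625 FPKM in controls. No background was subtracted from these first-set sums. Single meninges markers reached at most 0.663 FPKM in the knockdown libraries, where olfactory receptor genes averaged 0.672 and 0.557 FPKM. Of the 3 choroid plexus markers, Kl averaged 3.53 FPKM in first-set knockdown libraries and 0.033 FPKM in controls. Ttr did not share this rise, at 0.129 to 0.257 FPKM in first-set knockdown libraries and 0 to 0.944 FPKM in controls. Folr1 was at 0.119 to 1.78 FPKM in these knockdown libraries and 0 to 0.102 FPKM in controls. The part of these markers in the members' values was not tested.

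Of the 8 members tested in the new set 2 fell, Chd8 and Chd7, and 0 rose, while over all genes 5.15% fell and 3.84% rose. Chd8 is the gene targeted by the shRNA, and all family counts and medians given here include it. An unadjusted p under 0.05 was found for 4 of the 8, against 30% of all genes. Of the 8 members 6 had a fold change below 0, and the family's median log2 fold change was −0.19, against 0.02 over all 11291 tested genes. In all, 8.99% of tested genes changed (limma, adjusted p under 0.05), or 1015 genes, and 2452 with the replicate number as a block. First-set data gave 0 of 9 members changed by limma, 1 of them (Chd1) had an unadjusted p under 0.05, and 7 had a fold change below 0. There 23.8% of 12461 tested genes changed (13.2% rose and 10.7% fell), and 39.2% had an unadjusted p under 0.05. The family's median was −0.34 in the first set, against −0.15 over all genes. Rescaling by the median of ratios moved the all-gene median by over 0.1, to 0.01, and the family's median to −0.17. After background subtraction the family's median was −0.69, or −0.60 without pseudogenes, against −0.41 and −0.29 over all genes. The rescaling also moved the upward share of all first-set calls to 74.3%, against 55.2% as deposited, whereas background subtraction moved it to 30.6%, or 40.8% without pseudogenes. A joined fit of all 10 libraries, which shares 1 residual variance, tested 8 members. Of these 3 passed in the first set (Chd1, Chd2 and Chd8) and 2 in the new set (Chd7 and Chd8). Over all 10827 genes of that fit 4486 passed in the first set and 238 in the new set.

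**Figure D1:**
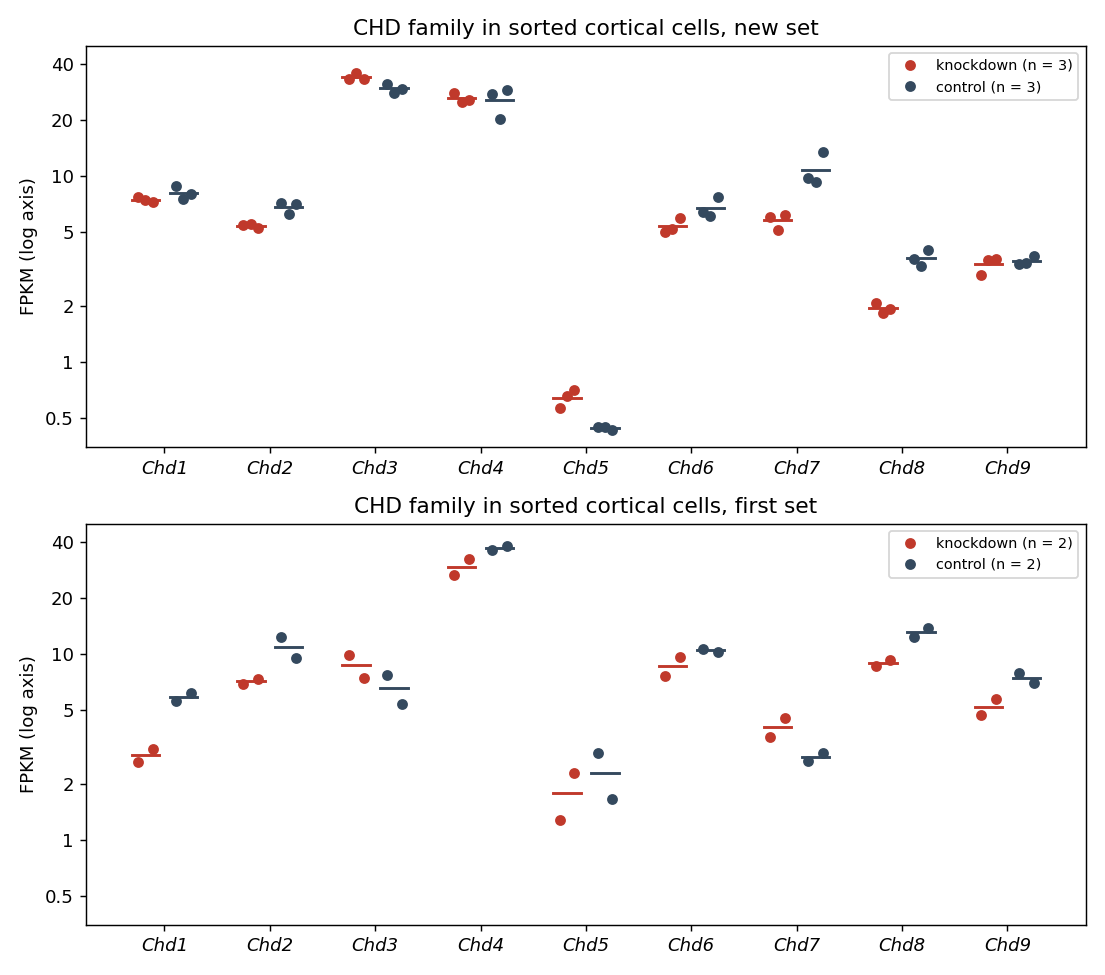
FPKM of each CHD gene (log axis) in every library, for the new set above and the first set below, with knockdown left of control; points are libraries and bars are means. Chd8 knockdown libraries lie below every control of their set, whereas Chd7 knockdown libraries lie below the controls in the new set and above them in the first set.

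Chd8, the gene targeted by the shRNA, had 2.09, 1.84 and 1.92 FPKM in the new-set knockdown libraries, against 3.59, 3.3 and 4.02 FPKM in the controls. First-set levels of Chd8 were 8.55 and 9.23 FPKM in knockdown libraries, against 12.4 and 13.8 FPKM in controls. The groups did not overlap in either set, and all 5 knockdown libraries lay below the controls of their own set. Such separation, in either direction, was seen in 35.7% of all tested new-set genes and in 67.8% of first-set genes. Knockdown means were 53.6% of control in the new set, and 68% for the first set. Both means rest on pooled sorted cells, in which a lower share of expressing cells and less Chd8 RNA per cell cannot be told apart.

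For Chd8 limma gave a new-set log2 fold change of −0.65 (SE 0.117, adjusted p = 0.0213) and a first-set value of −0.51 (SE 0.233, adjusted p = 0.152). The new-set call was lost without any 1 of 5 libraries (limma adjusted p from 0.053 to 0.0829) and kept without control replicate 11 (0.0218). Its first-set value was −0.35 after rescaling, and −0.69 or −0.60 after background subtraction with or without pseudogenes. An exact permutation test over both sets, regrouping within sets, gave a mean log2 difference of −0.58 and p = 0.0167 (two-sided), the smallest that its 120 regroupings allow. Within sets that test cannot go below 0.1 and 0.333. The 2 fold changes differed by −0.14 (new minus first, 95% interval −0.59 to 0.31, limma adjusted p = 0.625). That interval holds differences of either sign. These fold changes use log2(FPKM + 1), which shrinks changes more at lower FPKM values, as Chd8 had in the new set. With 5 FPKM added instead of 1 the difference turned sign.

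As a share of the summed FPKM of the 9 CHD genes, a measure within a library that no rescaling changes, Chd8 made up 2.16% ± 0.13 in new-set knockdown libraries and 3.82% ± 0.148 in controls (SD, n = 3 each). First-set shares were 11.7% ± 0.455 in knockdown libraries and 13.6% ± 1.36 in controls (SD, n = 2 each). The shares did not overlap between groups in either set. How often such shares or ratios separate for other genes was not counted. The first-set background was not subtracted from these shares or from the ratios below, and it shifts both. Across the 10 libraries the genes whose pattern lay closest to that of Chd8 were Mum1l1, Gcfc1, Zfp949, Sept1 and Tex9, out of 10827 compared. Their log2 values, taken relative to the control mean of the same table, differed from those of Chd8 by 0.0461 to 0.0783 on average. Mum1l1, the nearest, averaged 1.47 ± 0.131 FPKM in new-set knockdown libraries and 2.86 ± 0.301 FPKM in controls, and 1.07 ± 0.372 against 1.92 ± 0.192 FPKM in the first set.

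Chd7, a remodeler of enhancers in neural stem cells whose human counterpart is mutated in CHARGE syndrome, moved differently in the 2 sets. In the new set it had 6.05, 5.11 and 6.15 FPKM in knockdown libraries, against 9.78, 9.29 and 13.4 FPKM in controls. First-set levels of Chd7 were 3.55 and 4.52 FPKM in knockdown libraries, against 2.66 and 2.94 FPKM in controls. Every knockdown library was below the controls in the new set and above them in the first set. The new-set fold change was −0.79 (SE 0.149, limma adjusted p = 0.0236), with knockdown at 53.3% of control. The first-set fold change was 0.40 (SE 0.254) and did not pass (limma adjusted p = 0.274).

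The difference between the 2 Chd7 fold changes was tested directly and was −1.19 (new minus first, 95% interval −1.76 to −0.63, limma adjusted p = 0.00594). Of the 8 members tested for such a difference 2 passed, Chd7 and Chd1, against 32.5% of the 10827 genes tested in both sets, of which 43.9% had an unadjusted p under 0.05. The first-set value changed with subtraction of the background seen in its knockdown libraries. Chd7 was at 0.21 after subtraction of the background without pseudogenes and at 0.00382 after subtraction with them. The larger subtraction took 1.39 and 0.993 FPKM from knockdown replicates 1 and 2 (mean of 1118 genes). The smaller took 0.672 and 0.557 FPKM (1096 genes), so the few pseudogenes carried much of the larger one. The difference still passed after the smaller subtraction (limma adjusted p = 0.0152), and it was −0.80 and did not pass after the larger one (limma adjusted p = 0.0517). The new-set call of Chd7 was also lost without any 1 of 5 libraries (limma adjusted p from 0.051 to 0.0927), kept without control replicate 11 (0.0217), and lost with no filter on low values (0.0522).

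Chd7 made up 6.39% ± 0.641 of the family sum in new-set knockdown libraries and 11.3% ± 1.58 in controls (SD, n = 3 each), and 5.26% ± 0.407 and 2.91% ± 0.27 in the first set (SD, n = 2 each). Within libraries the log2 ratio of Chd7 to Chd8 was 1.54, 1.47 and 1.67 in new-set knockdown libraries, against 1.44, 1.49 and 1.73 in controls, so the ratio overlapped between groups. First-set values of this ratio were −1.27 and −1.03 in knockdown libraries, against −2.22 and −2.23 in controls, with no overlap.

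Cell type markers moved in the same libraries, and their counts stand beside 5.15% of all new-set genes lower and 3.84% higher, and 10.7% lower and 13.2% higher for the first set. Of 11 radial glia markers 7 fell in the new set, among them Sox9 (log2 fold change −0.91, limma adjusted p = 0.00677) and Hes1 (−1.05, limma adjusted p = 0.0103), both named after their values were seen. That count was 3 without any 1 knockdown library, without control replicate 12 or in the joined fit. Summed, the 11 markers ran from 1017 to 1566 FPKM in new-set knockdown libraries and from 1235 to 1581 FPKM in controls. Most of that sum is Fabp7 (592 to 1105 FPKM in knockdown libraries, 702 to 1011 FPKM in controls) and Vim (242 to 258 and 237 to 266 FPKM). Neither passed (limma adjusted p = 0.598 and 0.952), so the overlapping sums say little of the 7 that fell. Of the first-set radial glia markers 3 fell, and 0 without knockdown replicate 1, control replicate 1 or control replicate 2.

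Cortical neuron markers rose in 3 of 9 cases in the new set, in 7 with the replicate block, and in 0 without any 1 knockdown library, without control replicate 12, with no filter or in the joined fit. Without control replicate 10 that count was 1. First-set neuron markers fell in 4 of 9 cases, and in 0 or 1 without any 1 library. Intermediate progenitor markers fell in 3 of 6 cases in the new set, in 1 or 2 without knockdown replicates 10 or 11 or control replicate 12, and in 0 in the joined fit. Of the first-set progenitor markers 2 rose and 2 fell, with at most 1 each way without any 1 library.

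Cycling-cell markers fell in 2 of 8 cases in the new set and in 5 of 8 for the first, and all 8 had a fold change below 0 in both. Without any 1 library other than control replicate 11 the new-set count was 0 or 1, and the first-set count was 1 or 2 without any 1 library or after rescaling. Of 6 GABAergic interneuron markers the 3 tested in the new set fell. All 3 reached the mean of 1 FPKM only through their controls, so the filter itself favoured falls among those tested. With no filter on low values 3 of 6 fell. The count was 0 without any 1 knockdown library, without control replicate 10 or in the joined fit. All 6 summed to 2.31 to 3.62 FPKM in new-set knockdown libraries and 6.62 to 10.5 FPKM in controls, and 0 of 6 changed in first-set data by limma, also at an unadjusted p under 0.05. The part of these markers in the values of Chd7 and the other members was not tested.

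Chd6 and Chd9, the other relatives of Chd8, did not pass in either set. Chd6 had 5.03, 5.21 and 5.97 FPKM in new-set knockdown libraries, against 6.42, 6.12 and 7.69 FPKM in controls, with no overlap (log2 fold change −0.27, SE 0.123, limma adjusted p = 0.181). First-set Chd6 averaged 8.62 ± 1.45 FPKM in knockdown libraries and 10.4 ± 0.204 FPKM in controls (SD, n = 2 each, −0.26, limma adjusted p = 0.466), again without overlap. Chd9 averaged 3.35 ± 0.369 FPKM in new-set knockdown libraries and 3.49 ± 0.187 FPKM in controls (SD, n = 3 each, −0.05, 95% interval −0.32 to 0.22), and these groups overlapped. First-set Chd9 stood at 4.67 and 5.71 FPKM in knockdown libraries, against 7.87 and 6.98 FPKM in controls (−0.45, SE 0.252, limma adjusted p = 0.227).

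**Figure D2:**
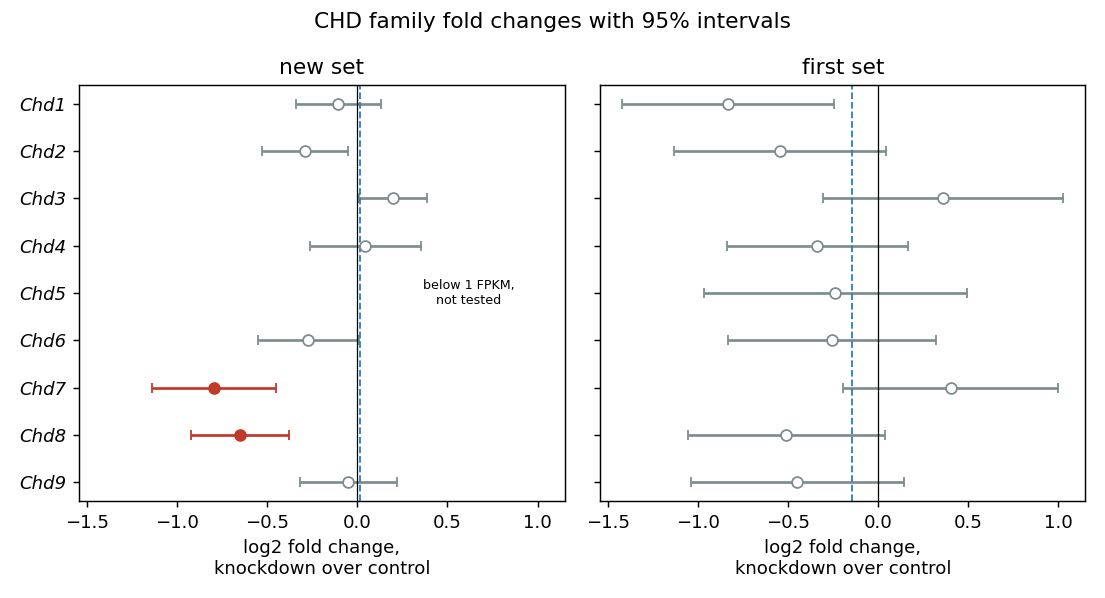
Log2 fold change of each CHD gene, knockdown over control, with its 95% interval from limma, in the new set (left) and the first set (right); filled red points passed the adjusted threshold and the dashed blue line is the median of all tested genes. Chd8 and Chd7 passed in the new set at −0.65 and −0.79, and no member passed in the first set.

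Among the NuRD ATPases, Chd3 and Chd4 were the most abundant members in the new set. Chd3 had 33.2, 35.8 and 33.3 FPKM in knockdown libraries, against 31.4, 28 and 29.5 FPKM in controls. All 3 knockdown libraries lay above the controls, at a log2 fold change of 0.20 (SE 0.0819) that did not pass (limma adjusted p = 0.152, unadjusted 0.0424). First-set Chd3 was at 9.9 and 7.42 FPKM in knockdown libraries, against 7.73 and 5.37 FPKM in controls, with overlap (0.36, SE 0.284, limma adjusted p = 0.376).

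Chd4, a NuRD ATPase used by cortical progenitors, averaged 26.2 ± 1.41 FPKM in new-set knockdown libraries and 25.6 ± 4.61 FPKM in controls (SD, n = 3 each, log2 fold change 0.05, 95% interval −0.26 to 0.35). Its controls spread from 20.3 to 28.9 FPKM and enclosed the knockdown libraries, and without control replicate 11 the value was −0.11. First-set Chd4 reached 26.4 and 32.2 FPKM in knockdown libraries, against 36 and 38.2 FPKM in controls, without overlap (−0.34, SE 0.214, limma adjusted p = 0.276). After rescaling this value was −0.17.

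Chd5, a neuronal member, was the least abundant in both sets. In the new set it had 0.57, 0.658 and 0.704 FPKM in knockdown libraries, against 0.449, 0.451 and 0.429 FPKM in controls. All 3 knockdown libraries lay above the controls, but Chd5 was under the mean of 1 FPKM required for testing. With no filter on low values its log2 fold change came to 0.19 (SE 0.0516, limma adjusted p = 0.0952). First-set levels of Chd5 were 1.28 and 2.3 FPKM in knockdown libraries, against 2.94 and 1.65 FPKM in controls (−0.24, SE 0.311, limma adjusted p = 0.598). Those groups overlapped, and the value was −0.62 after background subtraction without pseudogenes and −1.08 with them.

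The log2 ratio of Chd3 to Chd4 within a library was 0.26, 0.51 and 0.38 in new-set knockdown libraries, against 0.19, 0.46 and 0.03 in controls, so these overlapped. First-set ratios were −1.41 and −2.12 in knockdown libraries, against −2.22 and −2.83 in controls, without overlap. Chd3 thus exceeded Chd4 in all 6 libraries of the new set and was below it in all 4 of the first set. The tables were normalized separately, so FPKM levels are not compared between them.

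Chd1 and Chd2, which bind transcribed chromatin, both had first-set knockdown libraries below every control. Chd1 had 2.63 and 3.09 FPKM in first-set knockdown libraries, against 5.57 and 6.16 FPKM in controls, or 48.8% of control. Its log2 fold change was −0.83 (SE 0.249) with a limma adjusted p of 0.0503, just above the threshold. It passed with a pseudocount of 5 (0.0473), after background subtraction without pseudogenes (−1.08, 0.0318) or with them (−1.38, 0.0279), and in the joined fit (0.00195). In the new set Chd1 had 7.67, 7.44 and 7.25 FPKM in knockdown libraries, against 8.82, 7.52 and 7.99 FPKM in controls, with overlap (−0.11, SE 0.102, limma adjusted p = 0.512). The Chd1 fold changes differed by 0.73 (new minus first, 95% interval 0.28 to 1.17, limma adjusted p = 0.0195). After rescaling that difference was 0.57 and did not pass (limma adjusted p = 0.0521), nor did it without new-set knockdown replicate 10 (0.0541) or first-set control replicate 2 (0.0507).

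Chd2, whose human counterpart is mutated in a childhood epilepsy, had 5.44, 5.54 and 5.23 FPKM in new-set knockdown libraries, against 7.18, 6.27 and 7.07 FPKM in controls. First-set levels of Chd2 were 6.88 and 7.33 FPKM in knockdown libraries, against 12.2 and 9.53 FPKM in controls. Knockdown was below control without overlap in both sets, and neither fold change passed (−0.29, limma adjusted p = 0.111 in the new set, and −0.54, limma adjusted p = 0.154 in the first set). In the joined fit the first-set value of Chd2 passed (limma adjusted p = 0.0205). Over the family, with the targeted Chd8 included, knockdown lay wholly below control in 4 of 8 tested new-set members and above it in 1. There all tested genes gave 17.1% and 18.6%. The first-set counts were 6 of 9 below and 1 above, where all tested genes gave 40.4% and 27.4%.

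**Figure D3:**
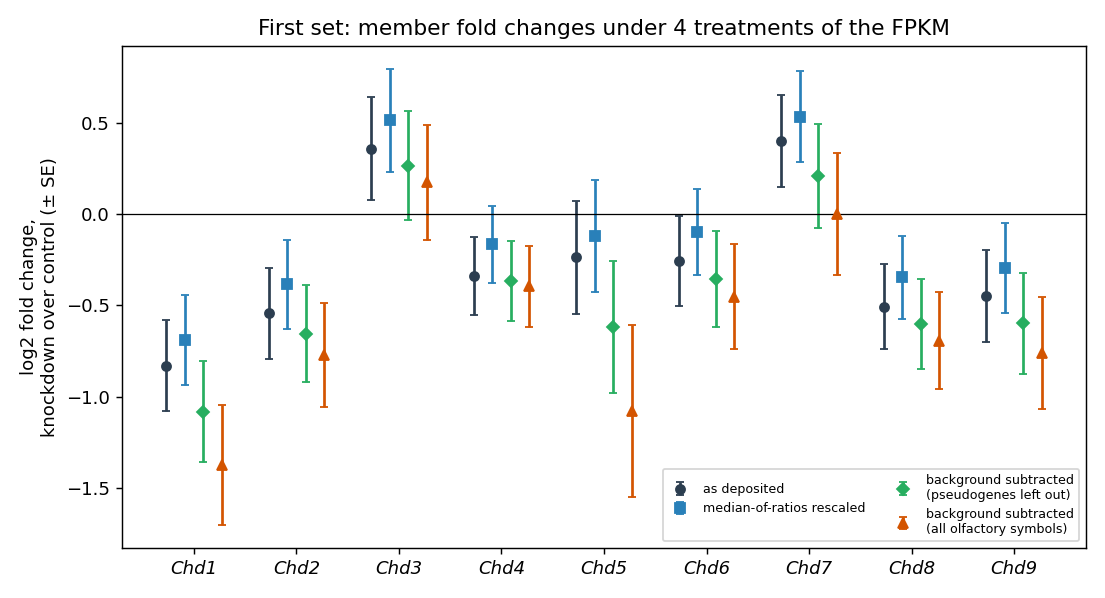
Log2 fold change of each CHD gene in the first set (± SE) from the FPKM as deposited, after median-of-ratios rescaling, and after subtracting the mean of olfactory receptor genes without or with pseudogenes. Chd7 runs from 0.54 after rescaling to 0.00382 after the larger subtraction, whereas Chd1 is at −0.69 or below throughout.

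Within each table the order of levels in the controls was as follows. In the new set Chd3 (29.6 ± 1.67 FPKM) and Chd4 (25.6 ± 4.61) came first and overlapped in range. They were followed by Chd7 (10.8 ± 2.24), Chd1 (8.11 ± 0.66), Chd2 (6.84 ± 0.497) and Chd6 (6.74 ± 0.835), of which the ranges of Chd2 and Chd6 overlapped. Chd8 (3.64 ± 0.366) and Chd9 (3.49 ± 0.187) overlapped as well, and Chd5 (0.443 ± 0.0121) was lowest. Among new-set knockdown libraries Chd7 came after Chd1, and its range there overlapped that of Chd6. Chd8 was below Chd9 in all 3 knockdown libraries, and above it in 2 of 3 controls.

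In the first-set controls Chd4 (37.1 ± 1.51 FPKM) was highest, followed by Chd8 (13.1 ± 1.02), Chd2 (10.9 ± 1.92) and Chd6 (10.4 ± 0.204), with Chd2 and Chd6 overlapping. Chd9 (7.42 ± 0.627), Chd3 (6.55 ± 1.67) and Chd1 (5.87 ± 0.417) followed, each overlapping its neighbour, then Chd7 (2.8 ± 0.196) and Chd5 (2.29 ± 0.909), which also overlapped. The family sum was 71.4 and 81.5 FPKM in first-set knockdown libraries, against 94.9 and 98 FPKM in controls. New-set sums were 89.7 to 90.7 FPKM in knockdown libraries and 84.7 to 103 FPKM in controls.

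The partners of CHD proteins and the other remodelers were then counted from lists. Of 12 NuRD subunits other than the CHD ATPases 0 changed in the new set by limma, 1 with an unadjusted p under 0.05 (median log2 fold change −0.04). First-set data had 2 that fell, the deacetylase Hdac1 and the methyl-CpG binder Mbd2. Hdac1 averaged 60.3 ± 9.79 FPKM in knockdown libraries and 118 ± 13.6 FPKM in controls (SD, n = 2 each, −0.97, limma adjusted p = 0.0208). Mbd2 averaged 1.44 ± 0.342 FPKM in knockdown libraries and 3.54 ± 0.0305 FPKM in controls (−0.90, limma adjusted p = 0.0394). Its value was −1.32 or −1.85 after background subtraction without or with pseudogenes, and it did not pass in the joined fit (limma adjusted p = 0.211).

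Of 18 other SNF2-type ATPases measured, 1 fell in the new set and 5 fell in the first, with 0 rises. Rad54l, a motor of homologous recombination, fell in both: it averaged 7.77 ± 1.03 FPKM in new-set knockdown libraries and 12.5 ± 0.395 FPKM in controls (SD, n = 3 each, −0.63, limma adjusted p = 0.0207). First-set Rad54l averaged 9.21 ± 1.44 FPKM in knockdown libraries and 22.9 ± 5.05 FPKM in controls (−1.22, limma adjusted p = 0.0174). The ISWI ATPases Smarca5 (−1.15, limma adjusted p = 0.018) and Smarca1 (−1.01, limma adjusted p = 0.0309) and the BAF ATPase Smarca2 (−0.74, limma adjusted p = 0.0345) fell in the first set. So did Smarcad1 (−0.77, limma adjusted p = 0.0476), which is named after its value was seen. The median log2 fold change of these 18 genes was −0.01 for the new set and −0.60 for the first. The new-set call of Rad54l did not hold in the joined fit (0.0552), nor without knockdown replicates 11 or 12 or control replicates 10 or 12, each left out alone (limma adjusted p from 0.054 to 0.0829). Of the cycling-cell markers given above 2 of 8 fell in the new set and 5 of 8 in first-set data, and their part in the Rad54l values was not tested.

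Among 8 reported partners of CHD8, including Ctnnb1 (beta-catenin), Ctcf, Trp53 and the WDR5 module of histone methyltransferases, 0 changed in either set by limma. With an unadjusted p under 0.05 were 1 of the new-set and 3 of the first-set partners, and the medians were 0.05 and −0.45. Ctnnb1, named as the best known partner though it did not pass, averaged 451 ± 19.7 FPKM in new-set knockdown libraries and 441 ± 48.3 FPKM in controls (SD, n = 3 each). First-set Ctnnb1 averaged 107 ± 14.9 FPKM in knockdown libraries and 175 ± 42.7 FPKM in controls (SD, n = 2 each), without overlap and without passing (−0.69, limma adjusted p = 0.0787, unadjusted 0.0243). Of Adnp, the partner of Chd4 in the ChAHP complex, and the 3 heterochromatin protein genes, 0 of 4 changed in the new set, also at an unadjusted p under 0.05. First-set Cbx3 (−1.70, limma adjusted p = 0.00964) and Cbx5 (−0.82, limma adjusted p = 0.0447) fell. Cbx3 averaged 700.2 ± 247 FPKM in first-set knockdown libraries and 2227 ± 455 FPKM in controls (SD, n = 2 each). After rescaling, Hdac1, Rad54l, Smarca5 and Cbx3 still passed in the first set (limma adjusted p from 0.016 to 0.0403), and Mbd2, Smarca1, Smarca2, Smarcad1 and Cbx5 did not. With no filter on low values 1 first-set gene of these lists passed, Smarca2 (0.0495). Each of these first-set calls was lost without any 1 of the 4 libraries, except that of Cbx3, which held without knockdown replicate 2 (0.0367) or control replicate 1 (0.0483). With the replicate block, new-set counts were 1 NuRD subunit lower, 3 SNF2-type ATPases lower and 1 higher, and 1 CHD8 partner higher. All first-set counts here stand beside 23.8% of genes called, and all new-set counts beside 8.99%.

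**Figure D4:**
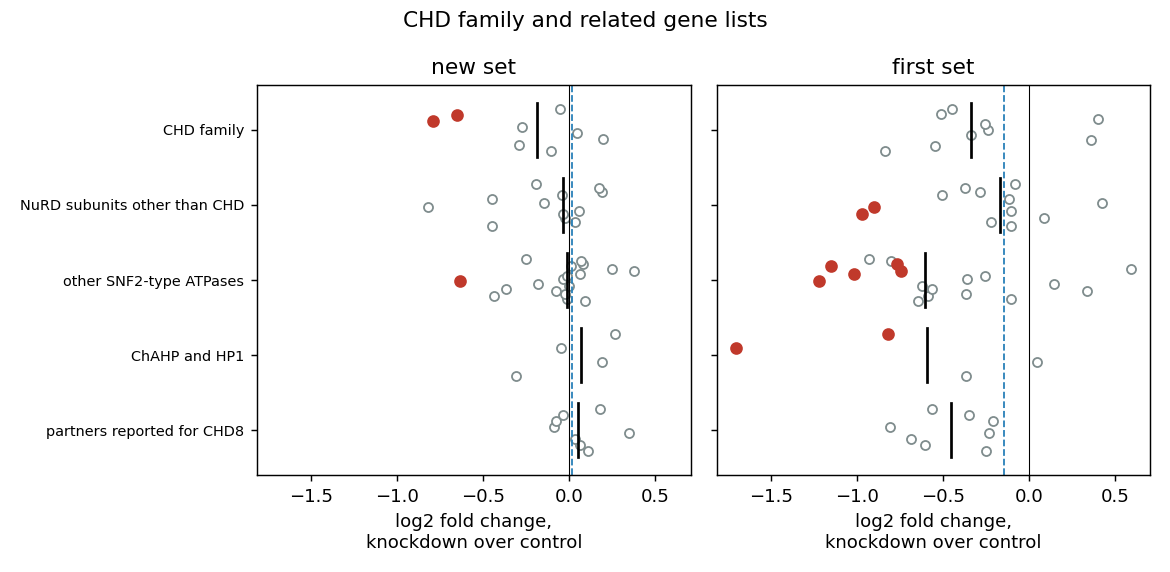
Log2 fold changes, knockdown over control, of CHD genes and of 4 related lists in the new set (left) and the first set (right); filled red points passed the adjusted threshold, black bars are list medians and the dashed blue line is the median of all tested genes. Chd8, Chd7 and Rad54l are the red points of the new set, and the first set has red points in 3 of the related lists.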

How the data were processed

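RNA sequencing measured GFP-positive cells of 10 libraries in 2 tables. The authors deposited FPKM values, 1 column per library. TopHat2, Bowtie, Cufflinks 2.0.0, Cuffdiff and build mm9 are named per the submitters' processing notes. Annotation, read filters and strand setting are not given in these sources, so reads shared between paralogs or overlapping genes could not be followed.

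Values were analysed as log2(FPKM + 1), which understates changes of low genes, and a gene was tested in a table where its mean reached 1 FPKM. limma 3.58.1 (R 4.3.3, lmFit and eBayes with trend, two-sided) compared knockdown with control inside each table, leaving 4 residual degrees of freedom for the new set, 2 for the first. A joined fit with 4 group means and 6 residual degrees of freedom tested the difference between sets. Benjamini-Hochberg adjustment ran over all tested genes, with a threshold of 0.05. The fits were also run on simulated data with independent normal noise. The simulation held no pairing, added background or depth difference, so it does not cover those features of the libraries. Libraries are separate pools of embryos, per the labels.

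Same-numbered libraries were checked for pairing by correlating their deviations from group means. New-set r was 0.122, 0.242 and 0.193, which pairs the numbers, but the main fits left pairing out and the replicate block was an alternative. First-set r was −0.0285 for same numbers and 0.0285 for different ones. With 2 libraries a group these are 1 value with either sign, so the check cannot settle pairing there.

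Background was the mean of olfactory receptor genes per library. Members and lists were chosen with earlier results of these data known. All 9 members are named, and of each related list those past the threshold, at most 4 by smallest adjusted p, with exceptions stated. The 5 genes nearest to Chd8 had the smallest mean absolute log2 difference over libraries.

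Alternatives were pseudocounts of 0.1 and 5, no filter, a minimum of 5 FPKM, the replicate block, median-of-ratios rescaling, background subtraction, the joined fit and leaving out each library. The subtraction without pseudogenes was chosen after seeing the data.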

Additional observations from a re-analysis of the deposited data

Results flagged for a closer look

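The Chd7 fold change differed between the sets by −1.19 on the log2 scale (new minus first, limma adjusted p = 0.00594), at −0.79 for the new set and 0.40 for the first. The Chd1 fold change differed by 0.73 (limma adjusted p = 0.0195), at −0.11 for the new set and −0.83 for the first. Both passed a test of the difference itself, which 32.5% of the 10827 genes tested also passed. The Chd7 difference did not pass after background subtraction with pseudogenes (limma adjusted p = 0.0517), though it did after subtraction without them. The Chd1 difference did not pass after rescaling (limma adjusted p = 0.0521). With shRNA, batch and table all different, their parts cannot be told apart.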

How the results depend on the processing

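Of 231 fold changes of members recomputed within a set, 210 kept their direction and side of the threshold, 11 lost and 6 gained a call, and 4 turned sign. Of 140 differences between sets 122 kept both, 4 lost and 1 gained a call, and 13 turned sign. The cause of these changes was not tested. In the new set 1 member passed with no filter (Chd8), and leaving out a library gave 0 to 2. With a minimum of 5 FPKM 1 passed (Chd7), but Chd8 was too low there to be tested. First-set members called were 1 with a pseudocount of 5, 1 after either background subtraction and 3 in the joined fit, where Chd8 passed at −0.51. Members differing between sets were 1 after rescaling and 1 to 2 without a library. With a minimum of 5 FPKM the count was 0, but Chd1 and Chd7 were too low in the first set to be tested there. With the replicate block (paired numbers) the members called stayed at 2 for the new set and 0 for the first, with Chd8 at −0.65. New-set genes called were 470 with no filter, 2452 with the block, 238 in the joined fit and 88 to 1883 without a library. First-set genes called were 1602 with a minimum of 5 FPKM, 4486 in the joined fit and 713 to 1247 without a library. First-set numbers gave no sign of pairing, though 2 libraries a group cannot settle it, and the block gave 2719 genes there.

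Without a library the new-set log2 fold change ran from −0.70 to −0.59 for Chd8, from −0.11 to 0.14 for Chd4 and from −0.0892 to 0.0224 for Chd9, and first-set Chd5 from −0.52 to 0.0492. The differences between sets ran from −0.39 to 0.0633 for Chd3 and from −0.17 to 0.14 for Chd6. Those that turned sign otherwise were Chd3 (0.0207) after background subtraction, Chd6 with a pseudocount of 5 (0.011) and after subtraction with or without pseudogenes (0.18 and 0.0829), and Chd8 with a pseudocount of 5 (0.0663) and after subtraction (0.0424). Absolute depth is unknown, and 2 libraries a group limit the first set.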
